A study of Mus musculus with 12 samples.

Results

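The genes described here code for the collagens and partner proteins of the stromal extracellular matrix. They were listed by name as 10 genes, and 8 of them had a row in the deposited table of 13232 genes: *Col1a1*, *Col1a2*, *Col3a1*, *Col4a2*, *Sparc*, *Fn1*, *Bgn* and *Lox*. The other two, *Col4a1* and *Serpinh1*, were not analysed here. The genes were selected on their levels in this same table, in which such stromal transcripts had been seen to be lower, with a large spread, in the high-fat-diet libraries. The difference between diets in these genes is therefore given as a description, with no test.

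The cells were bone marrow-derived macrophages, which grow out of marrow cells in culture under the growth factor M-CSF. The donors were wild-type C57B6/J mice fed either of 2 diets, normal (ND) or high in fat (HFD), whose age, sex and time on diet the labels do not give. Each culture started from whole marrow, received 20 ng/ml of M-CSF, was moved to serum-free medium on day 4 and was kept at 1% oxygen for 1 h on day 7. All 6 libraries used here, 3 per diet, come from hypoxic cells, and the 6 libraries at normal oxygen were not analysed here, so nothing can be said about the response to hypoxia. The labels do not say whether each library came from its own mouse, so p-values measure only the spread between these samples, which may be technical. Values of single libraries are given in the order of replicates 1, 2 and 3.

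Collagens are built from alpha chains that wind into a triple helix. Collagens I and III form the fibrils of connective tissue, collagen IV forms the network of basement membranes, and lysyl oxidase crosslinks the fibrils outside the cell. In bone marrow the fibrillar collagens are chiefly products of stromal and bone-forming mesenchymal cells, whereas macrophages are better known for taking up and degrading collagen and for making fibronectin.

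As read from the values, the deposited table held estimated gene counts divided by a size factor for each library, called the normalized level below. The reads counted in the table were estimated at 19046060 to 24491251 per library. Reads of genes without a row are not in these totals. The labelled cell type was borne out by its markers. All 14 macrophage markers listed had a row, and their summed normalized level was 419470 to 467490 under ND and 412170 to 483600 under HFD. The 8 matrix genes together summed to 473 to 1071 under ND and 332 to 960.2 under HFD, or 0.00149% to 0.00480% of a library's total in the table.

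Promoter sequence of 7 of the 9 genes looked up was found in RefSeq's table for mouse build GRCm38.p6, the assembly known as mm10, which the submitters' processing notes name. The 250 bases before the start are shown for *Col1a2*, *Col3a1* and *Col4a2*. Over the 6 libraries the log2 levels of *Col1a2* and *Col3a1* correlated at 0.97 (Pearson's r). *Col4a2*, which had few reads, correlated with them at 0.12 and 0.22. Whether the sequences bear on these values was not tested. Capitals mark a CCAAT box (CCAAT) or a TATA box (TATAAA), searched on both strands. The *Col1a2* sequence lies at chr6:4505368-4505617 on the plus strand, that of *Col3a1* at chr1:45311288-45311537 on the plus strand and that of *Col4a2* at chr8:11312555-11312804 on the plus strand.
Col1a2: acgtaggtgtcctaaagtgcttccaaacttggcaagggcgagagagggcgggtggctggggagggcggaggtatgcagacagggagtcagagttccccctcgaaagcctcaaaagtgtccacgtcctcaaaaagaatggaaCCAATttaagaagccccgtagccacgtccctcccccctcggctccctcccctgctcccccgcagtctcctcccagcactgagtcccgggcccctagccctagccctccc
Col3a1: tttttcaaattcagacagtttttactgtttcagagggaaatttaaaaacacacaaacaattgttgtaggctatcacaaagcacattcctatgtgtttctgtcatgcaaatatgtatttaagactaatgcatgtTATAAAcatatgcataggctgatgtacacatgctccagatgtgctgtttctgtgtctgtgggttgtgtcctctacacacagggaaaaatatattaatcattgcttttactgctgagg
Col4a2: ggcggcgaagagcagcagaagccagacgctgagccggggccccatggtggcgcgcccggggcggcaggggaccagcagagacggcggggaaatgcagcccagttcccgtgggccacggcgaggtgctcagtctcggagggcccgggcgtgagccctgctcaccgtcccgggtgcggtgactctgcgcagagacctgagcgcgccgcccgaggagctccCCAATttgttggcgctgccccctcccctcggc

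The *Col1a2* promoter had a CCAAT box 109 to 105 bases before the start, and *Col4a2* had one 32 to 28 bases before it. The letters CCAAT, on either strand, occur in 33.8% of the 32851 promoter windows of this length. *Col3a1* had no CCAAT but had TATAAA 117 to 112 bases before the start, letters found in 12.4% of windows. The *Col3a1* sequence held 35.2% G and C, against 62% for *Col1a2* and 73.6% for *Col4a2*, and a median of 52.4% over all windows. Neither box was found in the windows of *Sparc* or *Bgn*. *Col4a2* and *Col4a1* are arranged head to head: their annotated starts lie 21 bases apart on opposite strands. The starts are RefSeq's, and those of *Col1a2* and *Sparc* lie inside the longer GENCODE genes given below. A match of letters says nothing about whether a factor binds there.

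The mean log2 level was lower in HFD for 6 of the 8 genes and higher for the other two, *Fn1* and *Col4a2*. The median log2 difference (HFD less ND, on the log2(value + 1) scale) was -0.70, against -0.0034 over all 13232 genes, of which 51.1% were lower in HFD. The values of the diets overlapped for 8 of the 8 genes. Over all genes the diets did not overlap for 14.5%. The difference between diets was larger than the SD within a diet for 2 genes, *Col1a1* and *Col1a2*. In bulk RNA, fewer cells of a type and less RNA per cell cannot be told apart.

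**Figure D1:**
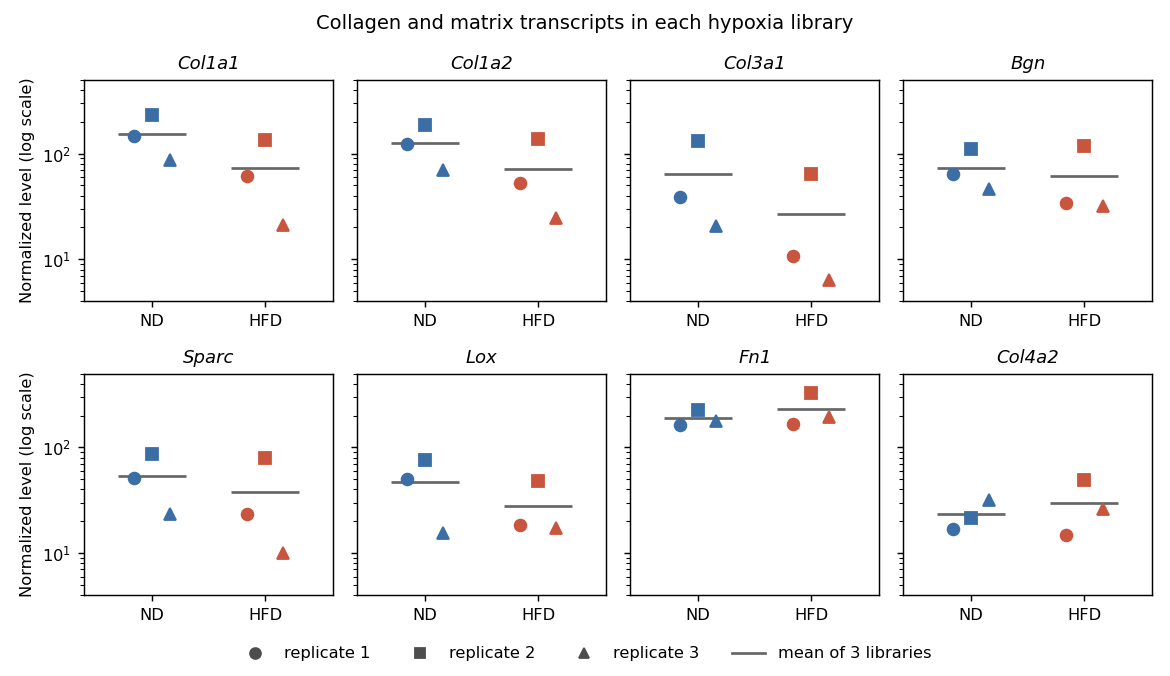
Normalized level (log axis) of each of the 8 genes in 3 ND and 3 HFD libraries. Symbols give the replicate number and bars the mean. Replicate 2 was the highest HFD library in all 8 genes and the highest ND library in 7, and the diets overlapped in each panel.

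*Col1a1* codes for the alpha 1 chain of collagen I (chromosome 11, 94936224 to 94953042). Its normalized level was 146, 229.8 and 87.4 under ND and 61.7, 135 and 20.9 under HFD. The means were 154 ± 71.6 under ND and 72.6 ± 57.9 under HFD (SD, n = 3 libraries each), a log2 difference of -1.33. HFD replicate 2 lay inside the ND range, and the other two HFD libraries lay below it.

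*Col1a2*, on chromosome 6 (4504814 to 4541544), codes for the alpha 2 chain of the same collagen. It was at 124, 187 and 69.7 under ND, and at 52.9, 138 and 24.5 under HFD. The log2 difference was -1.04, from 127 ± 58.6 under ND to 71.8 ± 59.1 under HFD (SD, n = 3 each). As for *Col1a1*, ND replicate 2 was highest, HFD replicate 3 lowest, and HFD replicate 2 again lay inside the ND range.

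Per kilobase of transcript the chains were close in level, at a mean of 19.1 per kb for *Col1a1* and 18.6 per kb for *Col1a2*. The ratio of *Col1a1* to *Col1a2* per kb was 1.06, 1.11 and 1.13 under ND. In HFD replicates 1 to 3 it was 1.05, 0.883 and 0.768. The ratio was lower in each HFD library than in any ND library, but the nearest pair, 1.06 and 1.05, differed by less than the counting error of the *Col1a1* reads (8.28% in ND replicate 1). The level of *Col1a2* itself varied 7.62-fold from the lowest library to the highest. The ratio of HFD replicate 3 rests on about 23 reads of *Col1a1* and 27 of *Col1a2*.

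*Col3a1*, the chain of the other fibrillar collagen on the list (chromosome 1, 45311538 to 45349706), varied most. It stood at 38.9, 132 and 20.4 under ND and at 10.8, 63.7 and 6.36 under HFD. Its log2 difference was -1.45 (63.8 ± 59.8 under ND, 26.9 ± 31.9 under HFD, SD, n = 3 each), less than the SD of 1.503 between libraries of a diet. A single HFD library, replicate 2, was above ND replicates 1 and 3. The ratio of *Col1a1* to *Col3a1* per kb ran from 1.63 in ND replicate 2 to 5.37 in HFD replicate 1, the latter resting on about 11 reads of *Col3a1*.

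Low counts limit these values. Divided by the value of 1 read, 47 of the 48 values of the 8 genes were whole numbers within 0.02, between 7 and 341 reads. *Col3a1* in HFD replicate 3 rested on about 7 reads, with an exact 95% Poisson interval of 2.81 to 14.4, and in ND replicate 2 on about 135, with 113 to 160. *Col1a1* had about 23 reads in HFD replicate 3 (14.6 to 34.5) and 140 in HFD replicate 2 (118 to 165). These intervals cover counting error only, and the libraries were picked here for their high and low values.

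Among the genes of proteins that act on or with collagen fibrils, *Sparc*, *Bgn* and *Lox* were lower in HFD by mean log2 level and *Fn1* was higher. *Sparc* codes for osteonectin, a collagen-binding glycoprotein (chromosome 11, 55394500 to 55423183). It was at 50.9, 87.0 and 23.6 under ND, and at 23.5, 80.1 and 9.99 under HFD. The log2 difference was -0.79 (SD within a diet 1.22). ND replicate 3 and HFD replicate 1 were almost level, and replicate 2 of each diet stood above the rest.

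*Bgn* codes for biglycan, a small leucine-rich proteoglycan (chromosome X, 73483602 to 73495933). Its levels were 63.9, 110.5 and 46.1 under ND and 34.3, 117 and 31.8 under HFD. Here the highest library was HFD replicate 2, and the log2 difference was -0.44 (SD within a diet 0.86). With weights for library quality (limma array weights) the difference turned to 0.17. These weights were 1.91, 0.89 and 0.44 under ND and 0.78, 3.09 and 0.56 under HFD. HFD replicate 2, the highest HFD library for all 8 genes, thus counted most. *Bgn* had the highest level per length of the 8, at 27.8 per kb.

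*Lox* codes for lysyl oxidase, the crosslinking enzyme. It stood at 49.9, 75.3 and 15.4 under ND and at 18.6, 48.3 and 17.3 under HFD. The lowest library was thus ND replicate 3, and the log2 difference was -0.62 (SD within a diet 0.99). An antisense gene overlaps *Lox* in the annotation, as antisense genes do *Fn1* and *Col4a2*, and small predicted genes lie on the same strand within *Col1a2* and *Col3a1*. The library kit keeps strand, but whether the counting used it is not given in the sources used here.

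*Fn1*, the gene of fibronectin (chromosome 1, 71585520 to 71653200), differed from these 6 in the sign of its diet difference and in varying less. Its highest library in each diet was replicate 2, as for these 6. *Fn1* was the most abundant of the 8 before length was taken into account, at 163, 228 and 178 under ND and 166, 329 and 195 under HFD. The means were 189.6 ± 34.03 under ND and 230.2 ± 86.8 under HFD (SD, n = 3 each), a log2 difference of 0.23. Its highest library was 2.02 times its lowest, against 3.67 to 20.8 times for the 6 genes above. Relative to *Col1a1* per kb, *Fn1* ranged from 0.707 in ND replicate 2 to 6.67 in HFD replicate 3.

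*Col4a2* codes for the alpha 2 chain of basement membrane collagen IV (chromosome 8, 11312805 to 11449287). It was low, at 17.0, 21.5 and 31.9 under ND and 14.7, 49.2 and 26.3 under HFD, or 4.15 per kb on average. Its values rested on about 15 reads (HFD replicate 1) to 51 reads (HFD replicate 2), with counting errors of 25.8% and 14.0%. The log2 difference was 0.23, within the SD of 0.67 between libraries of a diet. It was the only one of the 8 in which ND replicate 3 exceeded ND replicates 1 and 2.

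The differences of *Fn1* and *Col4a2* moved both ways with the processing. Without HFD replicate 2 the log2 difference was -0.058 for *Fn1* and -0.19 for *Col4a2*, and 8 of the 8 genes were lower in HFD. With array weights, in which HFD replicate 2 counted most, the log2 difference was 0.59 for *Fn1* and 0.87 for *Col4a2*.

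The same libraries were high for most of the 8 genes. ND replicate 2 was the highest ND library in 7 of them and HFD replicate 2 the highest HFD library in 8. For 5 genes the highest pair of all libraries were ND replicate 2 and HFD replicate 2, and for 5 genes HFD replicate 3 was lowest of all. The mean deviation of the 8 genes from their own means, on the log2 scale, was 0.27, 1.011 and -0.31 under ND and -0.69, 0.86 and -1.14 under HFD. By this mean over the 8 genes, ND replicate 2 and HFD replicate 2 were the highest libraries. The labels do not say what libraries of the same number share.

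Across the 6 libraries the log2 levels of *Col1a1*, *Col1a2*, *Col3a1*, *Sparc*, *Bgn* and *Lox* correlated at 0.81 to 0.99 over their 15 pairs (Pearson's r, n = 6 libraries, as a description). After each diet's mean was subtracted, r was 0.80 to 1.00, so the genes also moved together between libraries of the same diet. Without such subtraction, *Col4a2* correlated with these 6 genes at 0.036 to 0.43 and *Fn1* at 0.30 to 0.73, and *Fn1* with *Col4a2* at 0.80. These r mix the diet difference with the spread within a diet, and r within a diet was not computed for *Fn1* and *Col4a2*. Replicate 2 was the highest library of each diet for *Fn1*, as for the 6 genes. All r given here share library, depth and scaling. The grouping was made after the values were seen.

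**Figure D2:**
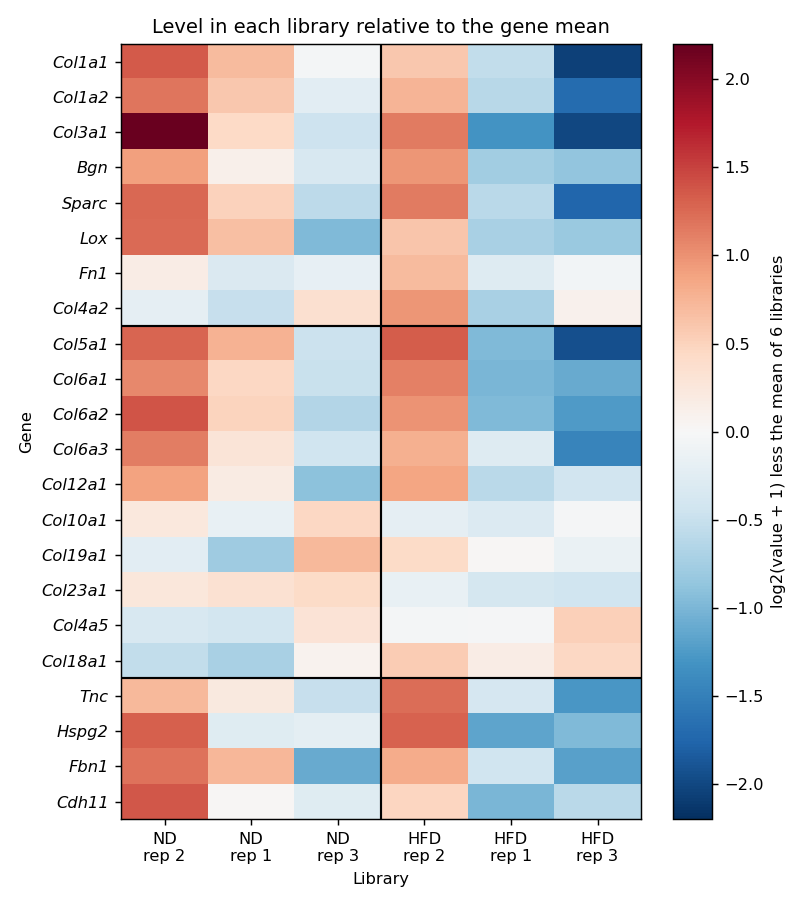
Level of each gene in each library, as log2(value + 1) less the gene's mean over 6 libraries, with the 8 genes above the upper line, other collagen genes between the lines and 4 other genes below. Replicate 2 of each diet is high (red) and HFD replicate 3 low (blue) for *Col1a1*, *Col3a1*, *Col5a1* and *Col6a1* to *Col6a3*, and not for *Col4a5* or *Col18a1*.

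The size of the spread was one reason for the choice of these genes and is described only. The SD within a diet, on the log2 scale, had a median of 1.00 over the 8 genes and of 0.12 over all genes. The SD over 6 libraries was larger than that of 99% of all genes for 6 of the 8 genes, with *Col4a2* above 98.5% and *Fn1* above 94.3%. Genes at low levels vary more in general, and counting error alone came to 6.52% (ND replicate 2) to 20.9% (HFD replicate 3) of the value for *Col1a1*.

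**Figure D3:**
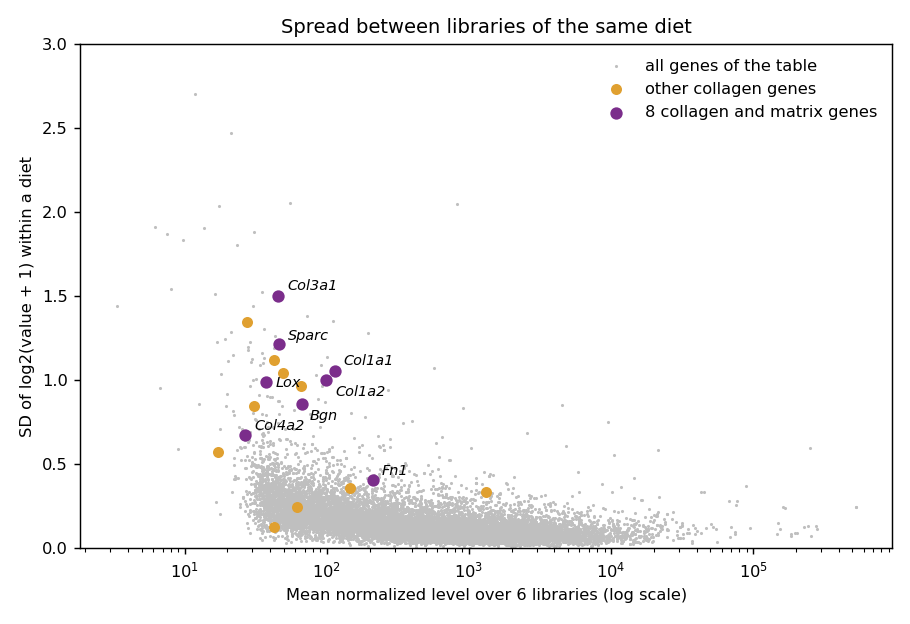
SD of log2(value + 1) between libraries of a diet against the mean normalized level over 6 libraries (log axis), 1 point per gene. *Col3a1* (1.503), *Sparc* (1.22), *Col1a1* (1.06) and *Col1a2* (1.00) lie above most genes of like level, *Fn1* (0.40) nearer to them.

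The size of the diet difference depended on single libraries. The median over the 8 genes, -0.70, was -0.24 without HFD replicate 3, -0.25 without ND replicate 2, -1.27 without ND replicate 3 and -1.32 without HFD replicate 2. It was -0.55 without HFD replicate 1 and -0.61 without ND replicate 1. With array weights, in which HFD replicate 2 counted most, the median was -0.24, and 5 of 8 genes were lower. *Col1a1* was at -1.96 when HFD replicate 2 was left out and at -0.64 when HFD replicate 3 was, and *Sparc* at -1.56 and -0.12 under the same omissions. *Col1a1*, *Col1a2*, *Col3a1*, *Sparc*, *Bgn* and *Lox* stayed lower in HFD in each of these 6 omissions. Without replicate 2 of both diets, an omission chosen after the values were seen, the median was -0.91 and 7 of 8 genes were lower.

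**Figure D4:**
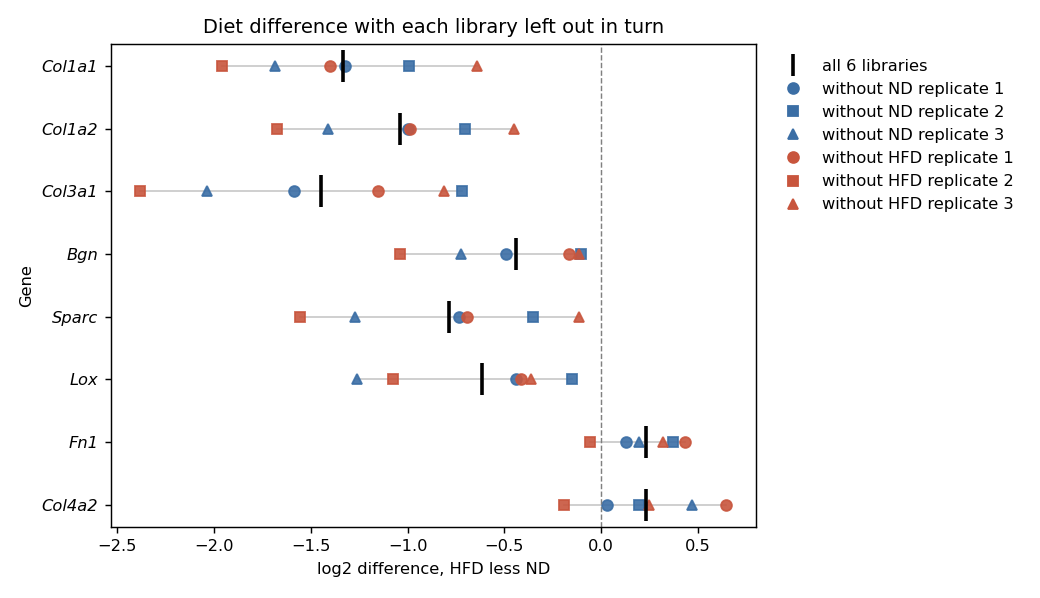
log2 difference between diets for each gene with all 6 libraries (black bar) and with each library left out in turn (symbols). Leaving out HFD replicate 2 moved 7 of the 8 genes to their lowest value, and *Fn1* and *Col4a2* below 0.

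A further 10 collagen genes had a row, 7 lower and 3 higher in HFD by mean log2 level (median -0.49). None passed an adjusted p of 0.05 (limma with Benjamini-Hochberg adjustment over all genes), as for 0 of all 13232 genes (0%). At an unadjusted p under 0.05 there were 2 of the 10, against 1401 (10.6%) of all genes. *Col5a1*, which codes for a chain of the fibril-nucleating collagen V, was at 34.9, 50.6 and 14.2 under ND and at 9.79, 52.1 and 4.54 under HFD. *Col6a1*, a chain of the beaded-filament collagen VI, was at 55.9, 85.1 and 28.3 under ND and 19.6, 87.8 and 18.2 under HFD, in the same order. Both had replicate 2 highest in either diet, as did *Col6a2*, *Col6a3* and *Col12a1*, and these genes were chosen after their values were seen.

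Other collagens did not follow that order. *Col18a1*, the basement membrane collagen from which endostatin is cleaved, had the largest positive difference of the collagens, at 764, 858 and 1325 under ND and 1394, 1849 and 1714 under HFD. Its log2 difference was 0.78 (SE 0.18, limma adjusted p 0.239), with no overlap of the diets. It passed the threshold with array weights and without ND replicate 3, and its limma adjusted p ran from 0.00538 to 0.999 over the alternatives. *Col23a1*, a transmembrane collagen chosen after its values were seen, was at 51.9, 48.9 and 55.5 under ND and 31.3, 36.7 and 29.97 under HFD. Its log2 difference was -0.66 (SE 0.20, limma adjusted p 0.318), again with no overlap, which over all genes held for 7.07% lower and 7.44% higher in HFD.

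Genes most like the 8 in their order of libraries were looked for among 530 other genes with a mean of at least 100 and an SD of at least 0.3. The highest Pearson's r with the mean deviation of the 8, over 6 libraries, were those of *Paox* (0.87), *Gm22988* (0.85), *Slit1* (0.83), *Cyp4f18* (0.81), *Ltf* (0.79) and *Snora73b* (0.79). None of these 6 is in the 5 lists of matrix and pathway genes given below, and *Ltf* is one of the neutrophil markers counted below. With no limit on the mean and an SD of at least 0.5, a rule set after the values were seen, 329 genes qualified. The highest were then *Col6a2* (0.99), *Col5a1* (0.99), *Col6a1* (0.98), *Col6a3* (0.97), *Tnc* (0.95), *Hspg2* (0.94), *Gm16299* (0.92), *Fbn1* (0.91), *Cdh11* (0.90) and *Col12a1* (0.87). *Tnc* (tenascin C), *Hspg2* (perlecan) and *Fbn1* (fibrillin 1) code for matrix proteins, and *Cdh11* for a cadherin of mesenchymal cells.

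Few markers of the mesenchymal cells known to make these proteins had a row. Of 24 markers of fibroblasts and marrow stroma, 6 had a row, and among those not analysed are *Dcn*, *Lum*, *Pdgfra*, *Pdgfrb* and *Cxcl12*. The 6 summed to 7368 to 7697 under ND and 6334 to 8135 under HFD, most of it *Igfbp4* (6387 ± 140.2 under ND, 5836 ± 1180 under HFD, SD, n = 3 each). *Kitl* was the next in level and had the smallest p of the list (log2 difference 0.41, limma adjusted p 0.353). The sum of the 6 was highest in replicate 3 of ND and replicate 1 of HFD, unlike that of the 8 genes. The remaining 4 (*Pcolce*, *Fbn1*, *Vcam1*, *Pdpn*), a subset set apart after the values were seen, summed to 177, 189 and 145 under ND and 139, 217 and 132 under HFD. HFD replicate 2 was the highest HFD library for 4 of these 4, and ND replicate 2 the highest ND library for *Fbn1* alone. Their part in the levels of the 8 genes was not tested.

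Other lists had few rows. Smooth muscle and mural markers had 2 of 12 (*Cnn2*, *Acta2*), bone and cartilage markers 2 of 15 (*Runx2*, *Col10a1*), adipocyte markers 2 of 8 (*Lpl* and *Fabp4*, both also made by macrophages) and endothelial markers 4 of 15, led by *Vwf* and *Stab2*. Of these 4 endothelial markers, 3 had an unadjusted p under 0.05 in limma (10.6% of all genes), 2 lower and 1 higher in HFD, and *Vwf* was lower with no overlap of the diets (3607, 2383 and 2574 under ND, 2221, 2161 and 2148 under HFD). *Acta2*, the actin of smooth muscle and myofibroblasts, was at 47.9, 55.7 and 28.3 under ND and 47.0, 73.3 and 35.4 under HFD. Neutrophil markers, of which 6 of 10 had a row with *Mmp8* and *Ngp* the highest, summed to 1712, 2455 and 1789 under ND and 2477, 3430 and 2110 under HFD. By mean log2 level 6 of the 6 were higher in HFD (median 0.30), while 51.1% of all genes were lower. At an unadjusted p under 0.05 in limma there was 1 of the 6, against 10.6% of all genes. This was *Mmp8*, at 443, 463 and 452 under ND and 707, 1032 and 834 under HFD (log2 difference 0.90, limma adjusted p 0.113). Its diets did not overlap, and those of the other neutrophil markers did. Replicate 2 was highest in each diet for the neutrophil markers as well. Cell cycle markers, 10 of 10 with *Mki67* and *Top2a* the highest, summed to 11269 to 12681 under ND and 9523 to 13458 under HFD. By mean log2 level 10 of the 10 were lower in HFD (median -0.13), against 51.1% of all genes, and 3 of them had an unadjusted p under 0.05 in limma, against 10.6%. *Birc5* had the smallest p of that list (log2 difference -0.28, limma adjusted p 0.353), with no overlap of the diets. Of the 14 macrophage markers, 7 were lower and 7 higher in HFD, with *Lyz2* and *Csf1r* the most abundant. *Cd14* had their smallest p, at 3998 ± 25.9 under ND and 3282 ± 358 under HFD (SD, n = 3 each, log2 difference -0.29, limma adjusted p 0.281), with no overlap. None of these markers passed the threshold (limma, 0 of 13232 genes), and their part in the levels of the 8 genes was not tested.

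The genes that make, bind and signal through the matrix were as a whole far more abundant than the 8 genes, and varied less between libraries. Over 5 lists, 68 of 143 genes had a row and summed to 202050 to 206930 in a library. Of these, 29 were lower and 39 higher in HFD, with a median log2 difference of 0.027 and a median SD within a diet of 0.12. No gene of the 68 passed the threshold in limma (0% of all genes did), and 17 had an unadjusted p under 0.05 (10.6% of all genes). With array weights 15 of the 68 passed, 11 higher and 4 lower, against 1133 (8.56%) of all genes. Without ND replicate 3, 4 of the 68 passed (*Col18a1*, *Itga4*, *Loxl3* and *Lrrc32*), against 233 (1.76%) of all genes.

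Enzymes and chaperones of collagen synthesis and crosslinking had 17 of 31 genes in the table, 6 lower and 11 higher (median 0.026). *P4hb*, the beta subunit of prolyl 4-hydroxylase, was at 7885 ± 492 under ND and 7719 ± 226 under HFD (SD, n = 3 each). *Colgalt1*, which attaches galactose to collagen hydroxylysine, was at 5156 ± 369 and 5667 ± 168. *P4ha2*, a catalytic subunit of prolyl 4-hydroxylase, had the smallest p of the list. It was at 61.9, 86.0 and 93.3 under ND and 118, 118 and 116 under HFD (log2 difference 0.56, SE 0.17, limma adjusted p 0.318), so that the diets did not overlap. Its limma adjusted p ran from 0.0220 with array weights to 0.999 over the alternatives.

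Basement membrane genes had 7 of 24 in the table, 3 lower and 4 higher (median 0.028). The most abundant were *Col18a1*, given above, and *Lamc1*, the laminin gamma 1 chain, at 1440.4 ± 40.4 under ND and 1333 ± 15.8 under HFD (log2 difference -0.11, limma adjusted p 0.559). Of 41 other matrix genes, 12 had a row, 8 lower and 4 higher (median -0.063). *Spp1*, the gene of osteopontin, led them at 15955 ± 1754 under ND and 12776 ± 1675 under HFD and had the smallest p (log2 difference -0.32, SE 0.11, limma adjusted p 0.340, from 0.0160 to 0.999 over the alternatives). *Thbs1*, thrombospondin 1, came next and ranged from 3164 in ND replicate 3 to 7176 in ND replicate 2 (log2 difference 0.20).

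Matrix receptors had 16 of 24 genes in the table, 7 lower and 9 higher (median 0.050). *Mrc1*, the macrophage mannose receptor, was at 22331 ± 1828 under ND and 20178 ± 503 under HFD, and *Itgb1*, the integrin beta chain shared by collagen and fibronectin receptors, at 15574 ± 374 and 15520.0 ± 355 (SD, n = 3 each). *Itgb3* had the smallest p of the list, at 573 ± 25.2 under ND and 482 ± 21.4 under HFD (log2 difference -0.25, SE 0.076, limma adjusted p 0.318, from 0.0636 to 0.999 over the alternatives). Its diets did not overlap.

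The TGF-beta pathway, which drives collagen genes in many tissues, had 16 of 23 genes in the table, 5 lower and 11 higher (median 0.15). The diets did not overlap for 6, each higher in HFD, against 7.44% of all genes. *Tgfb1*, the ligand, was at 10330 ± 229 under ND and 10046 ± 417 under HFD, and *Nrros*, which holds latent TGF-beta on myeloid cells, at 6805 ± 205 and 6882 ± 242 (SD, n = 3 each). *Acvrl1*, a type I receptor of the family, had the smallest p. It was at 639.6, 588 and 642 under ND and 722, 813 and 758 under HFD (log2 difference 0.29, SE 0.076, limma adjusted p 0.278, from 0.0171 with array weights to 0.999 over the alternatives). Its order of libraries was not that of *Col1a1*, since ND replicate 2 was its lowest ND library.

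**Figure D5:**
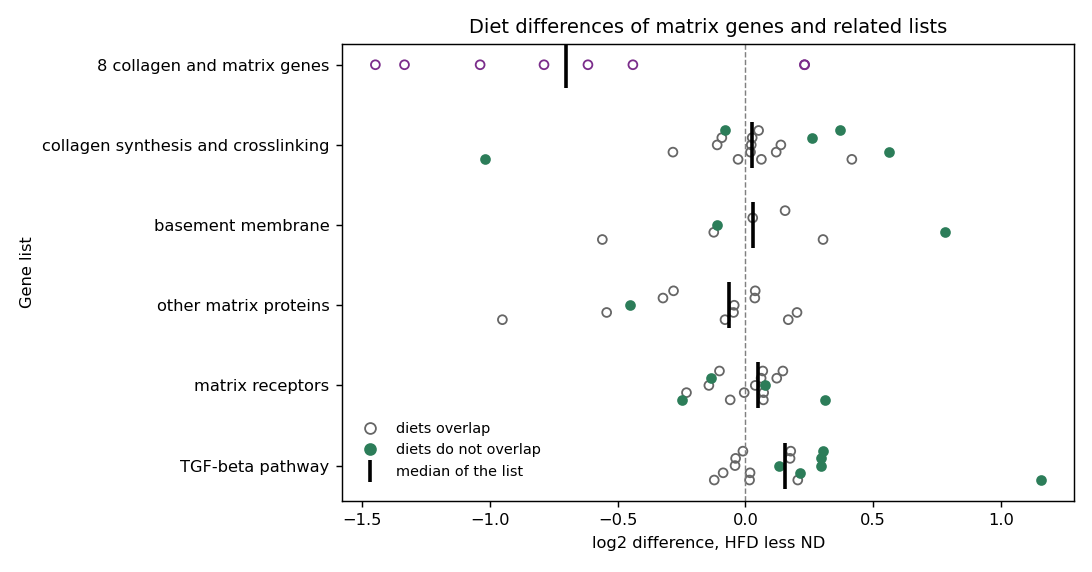
log2 difference between diets (HFD less ND) for the 8 genes and for the genes of 5 lists, 1 circle per gene, with the list's median as a bar and filled circles where the diets did not overlap. The 8 genes spread from -1.45 to 0.23 with no filled circle, and the medians of the 5 lists lie between -0.063 and 0.15.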

How the data were processed

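RNA was sequenced from cultured macrophages in stranded total-RNA libraries. Per the submitters' processing notes, the authors used STAR and Partek with build mm10. The counter, annotation and filter are not given in the sources used here. The deposited values are a normalized signal, estimated counts divided by a size factor per library, as read from the values. Between values of 5 and 1000, 57.0% to 58.3% were whole multiples (within 0.02) of the value of 1 read, so whole reads could not be recovered for the table and no count test was run. Columns marked NC were taken as ND, and the digit after the first hyphen of each column name as the replicate. The genes and lists were chosen with earlier results of these data known.

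Each gene's log2(value + 1) was compared with limma 3.58.1 in R 4.3.3 (two-sided, mean-variance trend), with Benjamini-Hochberg adjustment over all 13232 genes and a threshold of 0.05. The scale understates changes of low genes. A minimum mean of 1 removed no gene. Transcript lengths and gene positions came from GENCODE M21 (GRCm38). Named genes were the 8, and in each list the genes passing the threshold, the most abundant pair and the smallest p. Genes named outside this rule are said to be chosen after their values were seen. The procedure was tested on simulated data.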

Additional observations from a re-analysis of the deposited data

How the results depend on the processing

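The count of genes passing an adjusted p of 0.05 in limma, 0 of 13232 (1401 at an unadjusted p), rose to 1133 with array weights and ran from 0 to 233 with 1 library left out, the highest being the omission of ND replicate 3. Omitting HFD replicate 1 gave 2 and omitting ND replicate 2 gave 1. The other matrix genes passing, 0 of 68, rose to 15 with array weights and ran from 0 to 4 with 1 library left out. For these rises the cause was not tested. A term for the replicate number, the replicate block, gave 31 genes, with 0 of the 68. In this balanced design such a term cannot change a log2 difference, so those of the 8 genes were the same by construction. Deviations of same-numbered libraries correlated at -0.0086, -0.037 and -0.00069, and no library correlated best with its own number, so the libraries were not treated as pairs. Other pseudocounts, filters, scalings and the fit without the trend gave 0 genes for both counts, as did leaving out replicate 2 of both diets.

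For the 8 genes, the sign of the log2 difference changed in 4 of 96 alternative values: *Bgn* with array weights, *Fn1* without HFD replicate 2, and *Col4a2* without HFD replicate 2 and without replicate 2 of both diets. The 96 include the values with the replicate block, which could not change. The median of the 8, -0.70, was -0.24 with array weights and ran from -1.32 to -0.24 with 1 library left out. The values of the 8 genes rest on 7 to 341 reads each and on 3 libraries per diet.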

Other observations

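Some enzymes of collagen maturation are known targets of the hypoxia-inducible factors, and values of 3 of them follow. *P4ha1*, a catalytic subunit of prolyl 4-hydroxylase, was at 1774 ± 163 under ND and 2123 ± 157 under HFD (SD, n = 3 each, log2 difference 0.26, limma adjusted p 0.321, from 0.0202 with array weights to 0.999 over the alternatives), with no overlap of the diets. *Plod2*, a lysyl hydroxylase, was at 53.1 ± 6.38 and 54.2 ± 10.1 (log2 difference 0.020, limma adjusted p 0.983). *Loxl2*, a relative of lysyl oxidase, was at 34.5, 58.1 and 17.6 under ND and at 14.0, 17.3 and 16.1 under HFD (log2 difference -1.02, limma adjusted p 0.428, from 0.0578 to 0.999 over the alternatives). In *Loxl2* the HFD libraries were close together, and HFD replicate 2 was not raised as it was in *Lox*. These genes were chosen after their values were seen.

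*Lrrc32*, which codes for a protein that anchors latent TGF-beta at the cell surface, was at 88.8, 162 and 314 under ND and at 335, 388 and 391 under HFD. Its log2 difference was 1.16 (SE 0.35, limma adjusted p 0.314, from 0.0106 with array weights to 0.999 over the alternatives). Leaving out ND replicate 3 brought it past the threshold and leaving out ND replicate 1 lowered it to 0.71. *Fbln5*, the gene of the elastic-fibre protein fibulin 5, was at 61.9, 61.6 and 36.6 under ND and 18.6, 25.1 and 39.0 under HFD (log2 difference -0.95, limma adjusted p 0.355, from 0.0216 with array weights to 0.999 over the alternatives). Both were chosen after their values were seen.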
